A study of Homo sapiens with 4 samples.

Results

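The neighbours of MYCN on the short arm of chromosome 2 were examined in the human neuroblastoma line BE(2)C, which carries amplified MYCN, with and without knockdown of MYCN by siRNA. The members were 7 genes chosen by position, MYCNOS, DDX1, NBAS, FAM49A, TRIB2, VSNL1 and GEN1, out of 26364 genes listed in the RNA-seq tables, and all 7 were listed. The 2 Ctrl samples were cells given non-targeting control siRNA, and the 2 MYCN KD samples were cells given siRNA directed at MYCN. Per the labels, cells of either group were wild type, siRNA was used at 80 nM with Lipofectamine 2000 for 6 h, and total RNA was taken the next day. The study's methods give a lower final siRNA concentration than the labels. The comparison thus rests on a single siRNA in a single cell line at a single time, and the study calls its replicates biological, while the sample labels do not say whether they came from separate cultures. If they did not, the p-values measure at most technical spread, as left after the authors' adjustment for unwanted variation.

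In neuroblastoma, amplification multiplies a segment of 2p24 that always contains MYCN, the gene of a MYC family transcription factor, and often reaches into its neighbours. DDX1 and NBAS are the coding genes most often caught in the same segment, while genes farther away are amplified less often or keep their usual copy number. A gene that shares a segment with MYCN shares its copy number but has its own promoter, so its RNA need not follow that of MYCN. MYC proteins pair with MAX and bind DNA at E-box sequences such as CACGTG and the related CACGCG.

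On GRCh37, MYCN lies on the forward strand of chromosome 2 from 16080672 to 16087129. MYCNOS, a long non-coding antisense gene with 3 exons, runs on the reverse strand from 16058473 to 16082371 and overlaps MYCN over 1700 bases, of which 98 are exonic in both genes. DDX1 (15731302 to 15774470, forward strand, 26 exons) and NBAS (15307040 to 15701464, reverse strand, 52 exons) point away from each other across a gap of 29837 bases, with start sites 348.7 kb and 379.2 kb before that of MYCN. FAM49A, named CYRIA in the annotation (16730727 to 16847599, reverse strand, 12 exons), starts 766.4 kb beyond MYCN. VSNL1 (17720393 to 17838285, forward strand, 4 exons) and GEN1 (17935125 to 17970213, forward strand, 14 exons) start 1641.3 kb and 1854.7 kb beyond it. TRIB2 (12857036 to 12882860, forward strand, 3 exons) is the farthest, with a start site 3223.6 kb before that of MYCN. The annotation places the start of GEN1 328 bases from that of SMC6 on the opposite strand, with 107 bases of shared exon between these 2 genes.

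The promoter sequences of DDX1, TRIB2 and GEN1 are shown because they are the members whose searched start-site window holds CACGTG or CACGCG. Other E-box forms were not searched, and the windows of other members may hold them. Each runs 5′ to 3′ on the strand of its gene from 250 bases before to 50 bases after the start site in RefSeq (GRCh38.p14), and capitals mark CACGCG or its reverse complement CGCGTG. The windows are chr2:15591618-15591917 for DDX1, chr2:12716686-12716985 for TRIB2 and chr2:17753619-17753918 for GEN1, all on the forward strand.
DDX1: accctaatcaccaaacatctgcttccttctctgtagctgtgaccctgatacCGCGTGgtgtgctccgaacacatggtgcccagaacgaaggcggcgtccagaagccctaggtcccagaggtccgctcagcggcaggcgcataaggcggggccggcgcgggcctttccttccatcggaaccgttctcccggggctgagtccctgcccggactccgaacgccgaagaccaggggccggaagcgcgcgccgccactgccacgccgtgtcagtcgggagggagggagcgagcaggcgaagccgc
TRIB2: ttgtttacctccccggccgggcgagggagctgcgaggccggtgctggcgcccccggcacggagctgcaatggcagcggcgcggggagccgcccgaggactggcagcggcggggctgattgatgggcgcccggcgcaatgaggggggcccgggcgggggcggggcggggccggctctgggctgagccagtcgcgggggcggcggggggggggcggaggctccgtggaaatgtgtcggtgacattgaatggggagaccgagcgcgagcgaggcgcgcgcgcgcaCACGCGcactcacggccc
GEN1: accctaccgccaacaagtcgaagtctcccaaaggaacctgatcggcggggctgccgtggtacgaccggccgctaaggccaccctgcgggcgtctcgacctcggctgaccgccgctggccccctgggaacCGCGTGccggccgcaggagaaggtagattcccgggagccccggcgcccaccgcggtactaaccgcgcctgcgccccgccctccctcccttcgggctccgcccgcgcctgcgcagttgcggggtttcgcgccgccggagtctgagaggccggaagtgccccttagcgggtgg
The string begins 199 bases before the start of DDX1, 121 bases before that of GEN1, and at base 33 of TRIB2 with the start site as base 1. RefSeq windows were matched for 6 of the 7 members, all but FAM49A. MYCNOS, VSNL1 and GEN1 had 2 windows each, and only the first listed was searched. The shares over all promoters below count every window. CACGCG, searched on both strands, was in 3 of these 6 and in 11.4% of 35116 promoters of the same length. CACGTG, which reads the same on both strands, was in 0 of the 6 and in 7.26% of all promoters. The windows with the string were rich in GC, at 67.0% for DDX1, 77.3% for TRIB2 and 72.7% for GEN1, against 63.3% for MYCNOS, 53.7% for VSNL1 and 49.7% for NBAS. A match of letters describes the sequence only and is not evidence of binding.

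The values are RPKM (reads scaled to gene length and to the total of reads). The authors computed them after normalization with RUVSeq, so the spread between replicates is the spread after that step. That spread can lie under counting error, so SE, limma intervals and p-values may be too favourable, as may the counts of genes called. The totals of reads inferred behind the values were 34142988 and 31976939 for Ctrl replicates 1 and 2, and 29055819 and 30941778 for MYCN KD replicates 1 and 2. Differences were tested with limma on log2(RPKM + 1) over the 11411 genes whose RPKM averaged 1 or more, adjusted by Benjamini-Hochberg, and fold changes are on that scale, which understates those of low genes. Of these genes, 2890 rose and 2599 fell upon MYCN knockdown at an adjusted p under 0.05 (2413 and 3257 when samples were rescaled by the median ratio). All 11 adrenergic neuroblastoma markers were above the minimum, and their summed RPKM was 3624 to 3932 in Ctrl and 5079 to 5501 in MYCN KD, with 6 markers higher and 2 lower. The 5 fibroblast markers summed to 12.69 to 15.21 in Ctrl and 16.77 to 19.82 in MYCN KD (2 higher, 3 above the minimum). Immune markers summed to 1.543 to 1.775 RPKM over all samples. Endothelial markers summed to 0.2331 to 0.303 RPKM in Ctrl and 0.4127 to 0.533 in MYCN KD. Epithelial markers summed to 0.1425 to 0.1521 RPKM in Ctrl and 0.4152 to 0.4493 in MYCN KD. Among the immune, endothelial and epithelial markers, CD14 alone was above the minimum and KRT5 was at 0. The part of these shifts in the results below was not tested.

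MYCN, the targeted gene, gave 1068 and 1073 RPKM in Ctrl replicates 1 and 2 and 720.2 and 718.0 RPKM in MYCN KD replicates 1 and 2. It fell by 32.8% in mean RPKM (1070 ± 3.65 to 719 ± 1.53, SD, n = 2), a log2 fold change of -0.57 (SE 0.029, limma adjusted p = 0.00361). In Ctrl it ranked 42nd among all listed genes and stood 14.25 times above TRIB2, the highest of its neighbours, and in MYCN KD it stood 6.99 times above TRIB2. In bulk RNA a drop of this kind cannot be told apart between fewer cells of a type and less RNA per cell.

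Upon MYCN knockdown the neighbours moved in different directions. MYCNOS and TRIB2 rose, DDX1 fell, NBAS and GEN1 did not pass the test, and FAM49A and VSNL1 were nearly silent in both conditions. DDX1 (limma adjusted p = 0.0465) and GEN1 (limma adjusted p = 0.0561) both lay close to the threshold of 0.05, on opposite sides of it. Of the 5 members above the minimum of 1 RPKM, 2 were called higher, where 25.3% of all tested genes were, and 1 was called lower, where 22.8% of all tested genes were. The values of Ctrl and MYCN KD did not overlap for 4 of the 5 members, as for 76.2% of all tested genes. The median log2 fold change of these 5 members was 0.34, beside 0.026 over all tested genes. With 5 members, these counts are a description and say nothing particular to the neighbourhood.

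**Figure D1:**
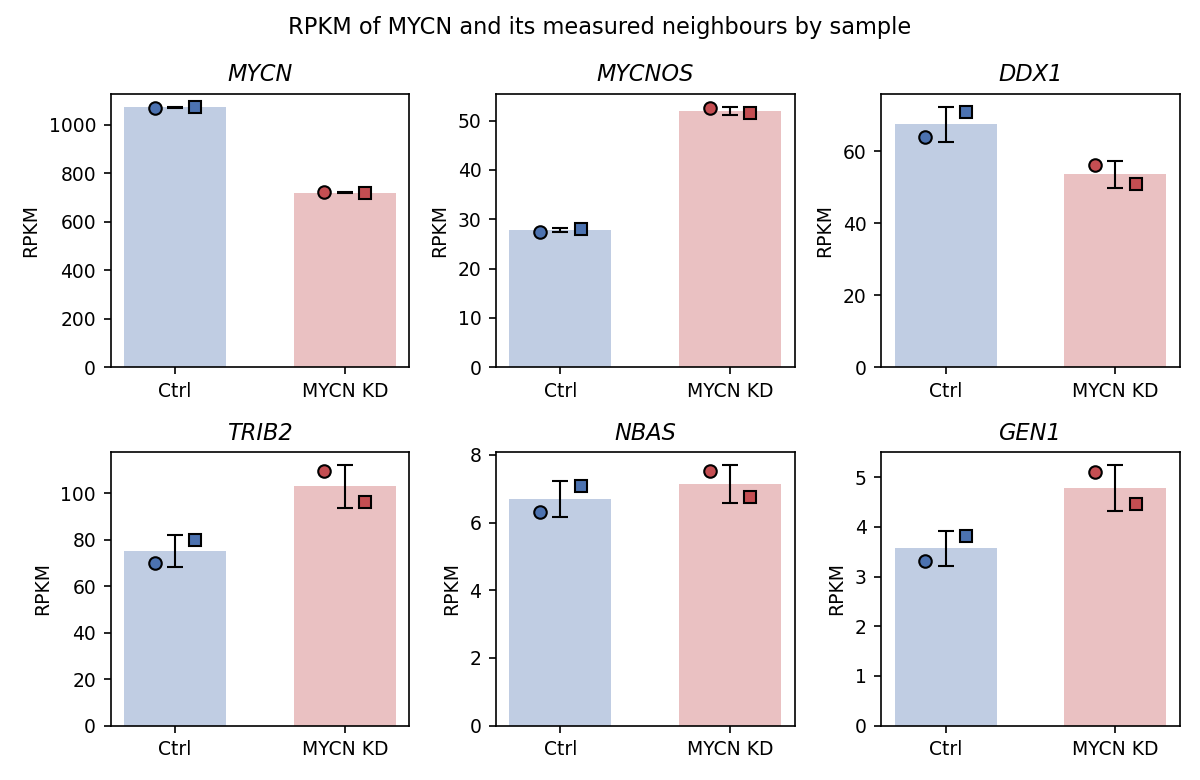
RPKM of MYCN and of the 5 neighbours above the minimum in the Ctrl and MYCN KD samples. Bars are group means, error bars the SD (n = 2), circles replicate 1 and squares replicate 2, and each panel has its own axis from 0. MYCN and DDX1 lie lower, and MYCNOS, TRIB2 and GEN1 higher, after knockdown than in any Ctrl sample, while the NBAS values overlap.

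MYCNOS, the antisense gene, showed the largest change among the members. This gene gives rise to a non-coding RNA, and a short protein called NCYM has also been described from it. Ctrl replicates 1 and 2 gave 27.5 and 28.1 RPKM, whereas the MYCN KD replicates gave 52.6 and 51.5, so that both MYCN KD values lay far above both Ctrl values. The mean rose by 87.1%, from 27.8 ± 0.437 to 52.1 ± 0.819 RPKM (SD, n = 2), which is 0.88 on the log2 scale (SE 0.036, 95% interval 0.77 to 0.99, limma adjusted p = 0.00359). Its change was higher than that of 97.2% of the tested genes. The call held in 12 of 12 alternative settings, with log2 fold changes from 0.80 to 0.94. Among these settings, the fit with a term for replicate number (the replicate block) and the fits with a sample left out took their variance from all genes together. Their degrees of freedom were 11411, against 3.49 in the reported fit. Their calls, counted here and below, are therefore not like for like with the others. The RPKM rest on 1792 and 1716 reads in Ctrl and 2918 and 3039 reads in MYCN KD, over a counted length of 1908 bases. Within either group the counting intervals of the replicates overlapped, at 26.3 to 28.8 and 26.8 to 29.5 RPKM in Ctrl. Intervals on reads here and below are exact 95% Poisson intervals and cover counting error only. The reads were recovered from adjusted values and are not raw counts, so these intervals are nominal.

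MYCNOS and MYCN thus moved in opposite directions. For each 100 RPKM of MYCN the Ctrl replicates held 2.58 and 2.62 RPKM of MYCNOS, and the MYCN KD replicates held 7.31 and 7.17 RPKM. The log2 ratio of MYCNOS to MYCN rose from -5.27 ± 0.018 to -3.79 ± 0.020 (SD, n = 2), a difference of 1.48 or 2.79-fold. This ratio within a sample does not depend on a scaling of the whole sample. The difference was many times the replicate SD, which is that of adjusted values and may lie under counting error. The exact permutation test over 2 against 2 samples gave p = 0.3333 (two-sided), the smallest it can give. Whether the reads were counted by strand is not given in the sources used here, so reads from the shared stretch cannot be assigned to MYCN or MYCNOS with certainty. How many of the MYCNOS reads come from that stretch was not tested. The overlap given above is from GENCODE, where the exons of MYCN and MYCNOS cover 2755 and 5170 bases. The counted lengths were 3038 and 1908 bases, so the stretch shared by the counted genes may differ.

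DDX1 encodes a DEAD-box RNA helicase that acts in RNA processing and tRNA ligation, and it was the neighbour that fell. The RPKM of DDX1 was 64.0 in Ctrl replicate 1, 71.0 in Ctrl replicate 2, 56.3 in MYCN KD replicate 1 and 51.0 in MYCN KD replicate 2. The groups did not overlap, but the replicates of a group lay nearly as far apart as the nearest samples of the 2 groups. Mean RPKM fell by 20.5%, from 67.5 ± 4.91 to 53.6 ± 3.73 (SD, n = 2), a log2 fold change of -0.33 (SE 0.082, 95% interval -0.57 to -0.083, limma adjusted p = 0.0465). The adjusted p stood close to the threshold and passed it in 6 of 12 alternative settings. It was 0.0573 with the replicate block, 0.0741 after quantile normalization and 0.105 with samples at the same total RPKM. The log2 fold change was -0.25 without Ctrl replicate 2 and -0.26 without MYCN KD replicate 2.

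NBAS, which starts on the opposite side of the short gap from DDX1, encodes a protein of Golgi-to-ER retrograde transport that also takes part in nonsense-mediated decay. Ctrl replicates 1 and 2 held 6.31 and 7.08 RPKM, and their MYCN KD counterparts 7.53 and 6.74 RPKM. These values overlapped, since MYCN KD replicate 2 lay between the Ctrl replicates. The log2 fold change was 0.081 (SE 0.085, limma adjusted p = 0.476), and its 95% interval ran from -0.17 to 0.33. The interval thus leaves room for a change in either direction, and none of the 12 alternative settings brought NBAS past the threshold.

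These 2 genes lie side by side, and the ratio of their levels was lower after knockdown. The RPKM ratio of DDX1 to NBAS stood at 10.15 and 10.02 in Ctrl and at 7.47 and 7.56 after knockdown, a difference in log2 ratio of -0.42 or 0.745-fold. The ratio was close between replicates (log2 SD 0.013 in either group) although the RPKM of each gene was not. This closeness is that of adjusted values and is not shown to be particular to the pair. In Ctrl replicate 1 the nominal counting interval of NBAS alone was 6.00 to 6.63 RPKM, relatively wider than the spread of the Ctrl ratios. The exact permutation test again gave p = 0.3333, the smallest possible with 2 against 2 samples.

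TRIB2 encodes a Tribbles pseudokinase that serves as a scaffold for ubiquitin ligases, and it was the most highly expressed of the neighbours. It reached 70.2 RPKM in Ctrl replicate 1 and 80.0 in Ctrl replicate 2, and 109 and 96.4 RPKM in MYCN KD replicates 1 and 2, with no overlap. The mean rose by 37.1%, from 75.1 ± 6.96 to 103 ± 9.22 RPKM (SD, n = 2), or 0.45 on the log2 scale (SE 0.10, 95% interval 0.15 to 0.75, limma adjusted p = 0.0375). The call held in 11 of 12 alternative settings, the exception being the fit with no filter on low values (adjusted p = 0.0601). With 10558 to 14014 reads per sample, the nominal counting intervals of the Ctrl replicates were 68.9 to 71.5 and 78.6 to 81.5 RPKM and did not overlap. The same held for the Ctrl replicates of DDX1 (62.4 to 65.7 and 69.2 to 72.8 RPKM) and of NBAS (6.00 to 6.63 and 6.74 to 7.43 RPKM).

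GEN1 encodes a Holliday junction resolvase, a nuclease that separates recombined DNA strands. The Ctrl samples lay at 3.32 (replicate 1) and 3.82 RPKM (replicate 2), and the MYCN KD samples at 5.11 and 4.46 RPKM. No MYCN KD value reached down to the Ctrl values, at means of 3.57 ± 0.355 and 4.79 ± 0.459 RPKM (SD, n = 2). The log2 fold change was 0.34 (SE 0.094, 95% interval 0.064 to 0.62), but the limma adjusted p was 0.0561 and GEN1 did not pass the test. It passed after quantile normalization (log2 fold change 0.28, limma adjusted p = 0.0265) and median ratio scaling (0.28, adjusted p = 0.0469). It did not pass in the other settings that kept all samples and tested it. Without Ctrl replicate 2, and also without MYCN KD replicate 2, its log2 fold change was 0.42. SMC6, a subunit of the SMC5/6 complex that starts beside GEN1 on the opposite strand, held 5.03 and 4.97 RPKM without knockdown and 4.80 and 4.87 RPKM with it. Its change on the log2 scale was -0.042 (SE 0.039, 95% interval -0.16 to 0.074, limma adjusted p = 0.428). The RefSeq windows around the GEN1 and SMC6 start sites share 158 of their 300 bases. Reads from the exon stretch these genes share cannot be assigned to either without strand. The exon overlap given above is from GENCODE, and that of the counted RefSeq genes may differ.

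FAM49A and VSNL1 gave almost no reads, although they lie closer to MYCN than GEN1 and TRIB2. FAM49A, a RAC1-binding protein that restrains actin-driven protrusion, had 1 read in Ctrl replicate 1 (0.00623 RPKM) and was listed at 0 in the other 3 samples. VSNL1, a calcium sensor of neurons, had 3 and 2 reads in the Ctrl replicates (0.0438 and 0.0312 RPKM), 0 reads in MYCN KD replicate 1 and 1 read in MYCN KD replicate 2 (0.0161 RPKM). All these counts are at or under a floor set at 3 reads, which is 0.0187 to 0.0220 RPKM for FAM49A and 0.0438 to 0.0515 RPKM for VSNL1. The exact 95% interval of a count of 0 reaches slightly higher, to 3.69 reads. Neither gene entered the test, no fold change is given, and a difference was not detectable at this depth.

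**Figure D2:**
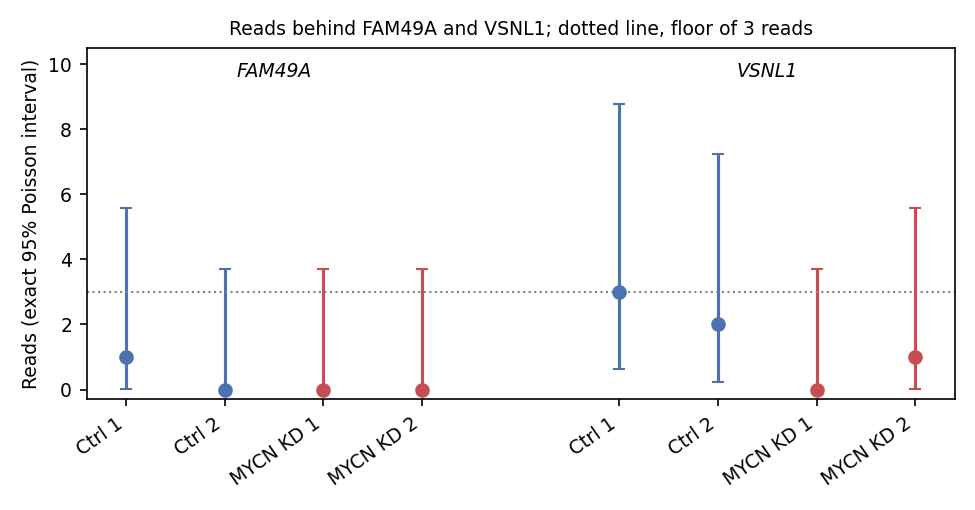
Reads behind the RPKM of FAM49A and VSNL1 in each sample, with exact 95% Poisson intervals as bars and the floor of 3 reads as a dotted line. No sample exceeds 3 reads, and a count of 0 has an upper limit of 3.69 reads.

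Since RPKM is scaled by gene length, the levels can be set in order. In Ctrl the order was MYCN, TRIB2, DDX1, MYCNOS, NBAS and GEN1, with VSNL1 and FAM49A last and not ordered between themselves at so few reads, and TRIB2 and DDX1 did not separate, since their replicate values overlapped. DDX1 stood 2.43 times above MYCNOS, MYCNOS 4.15 times above NBAS, and NBAS 1.88 times above GEN1, each without overlap. In MYCN KD the order of these means was the same, but a different pair overlapped. TRIB2 now stood 1.92 times above DDX1 without overlap, while DDX1 and MYCNOS overlapped at 53.6 and 52.1 RPKM. Among all listed genes, MYCNOS was above 89.2%, DDX1 above 95.3% and TRIB2 above 95.8% in Ctrl, against 73.8% for NBAS and 67.3% for GEN1. These shares include the 6456 listed genes that were at 0 in all samples. In Ctrl, DDX1 gave 10.1 times the RPKM of NBAS on average although their start sites are 30534 bases apart.

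A shared pattern ran through the replicates. In all 5 measured members, Ctrl replicate 1 was below Ctrl replicate 2, and MYCN KD replicate 1 was above MYCN KD replicate 2. MYCN had the same order, while SMC6 and ODC1 had the reverse. The share of all tested genes with either order was not counted, so this order is not shown to be particular to the members. The difference between same-numbered samples therefore depended on the number, at 0.63 and 0.27 for TRIB2, 0.50 and 0.18 for GEN1, 0.22 and -0.06 for NBAS, and -0.18 and -0.47 for DDX1 on the log2(RPKM + 1) scale. For MYCNOS they were close, at 0.91 and 0.85. Over all 11411 tested genes the deviations of same-numbered samples from their group means had a correlation of -0.98 across genes. The part of the authors' adjustment for unwanted variation in this pattern was not tested.

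**Figure D3:**
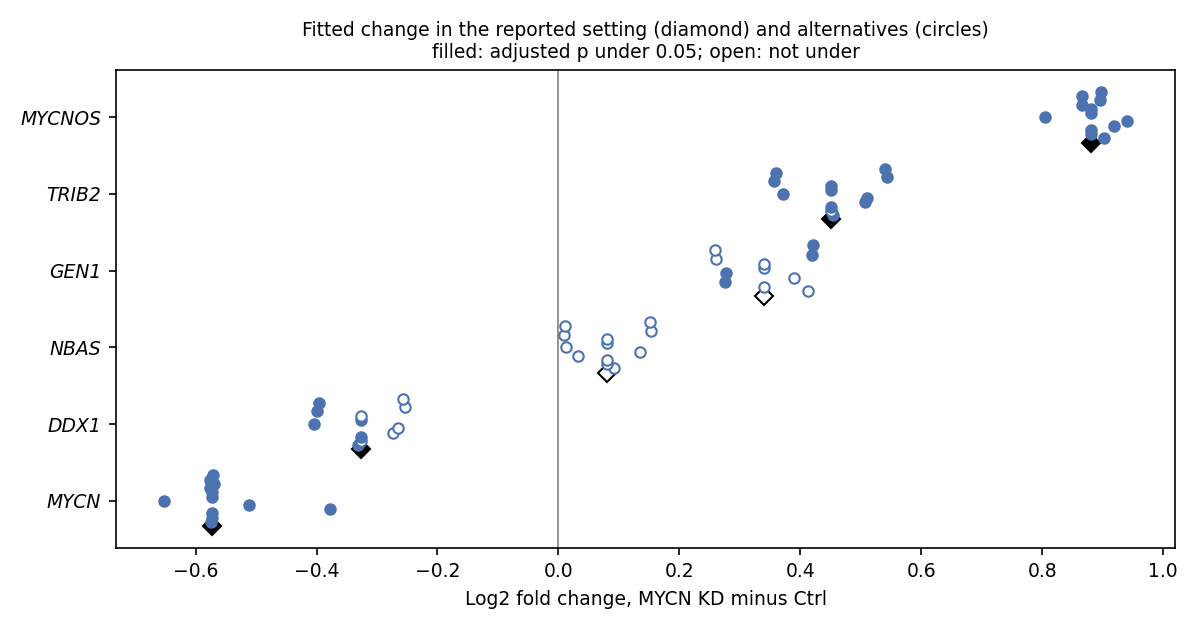
Log2 fold change (MYCN KD minus Ctrl) of MYCN and the 5 measured neighbours in the reported setting (diamonds) and in the alternative settings (circles), filled where the limma adjusted p was under 0.05. MYCNOS, at 0.80 to 0.94, is filled throughout, DDX1, GEN1 and, in 1 setting, TRIB2 change sides of the threshold, and NBAS, at 0.0084 to 0.15, is open throughout.

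The surroundings on 2p24 and 2p25 were described with a list of 53 other genes, of which 52 were listed, 5 were at 0 in all samples and 33 were tested. Of these 33, 8 rose, 6 fell and 19 did not pass the test, with 21 not overlapping between groups and a median log2 fold change of -0.010. Over all tested genes, 25.3% rose, 22.8% fell and 76.2% did not overlap. In 2p25, 6 of 22 tested genes rose and 3 fell. In 2p24, the band of MYCN, 2 of 11 rose and 3 fell. The lowest log2 fold changes were those of SDC1, the cell surface proteoglycan syndecan-1 (-1.23, SE 0.095, limma adjusted p = 0.00524), NOL10, a nucleolar protein of ribosome biogenesis (-1.05), and ODC1, the rate-limiting enzyme of polyamine synthesis and a classic MYC target (-0.99). ODC1 held 284.3 and 283.5 RPKM in the Ctrl samples, and 142.0 and 142.7 RPKM after knockdown. The highest were those of KIDINS220, a scaffold of neurotrophin receptors (0.73), KCNF1, a potassium channel subunit (0.65), and RHOB, a small GTPase (0.65), all with limma adjusted p from 0.00373 to 0.0156. KCNF1 is a low gene (0.787 to 1.80 RPKM), and with a pseudocount of 0.1 its log2 fold change was 1.10, above KIDINS220 (0.77) and above MYCNOS (0.90). The changes of TRIB2 and DDX1 lay within the range of the list.

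**Figure D4:**
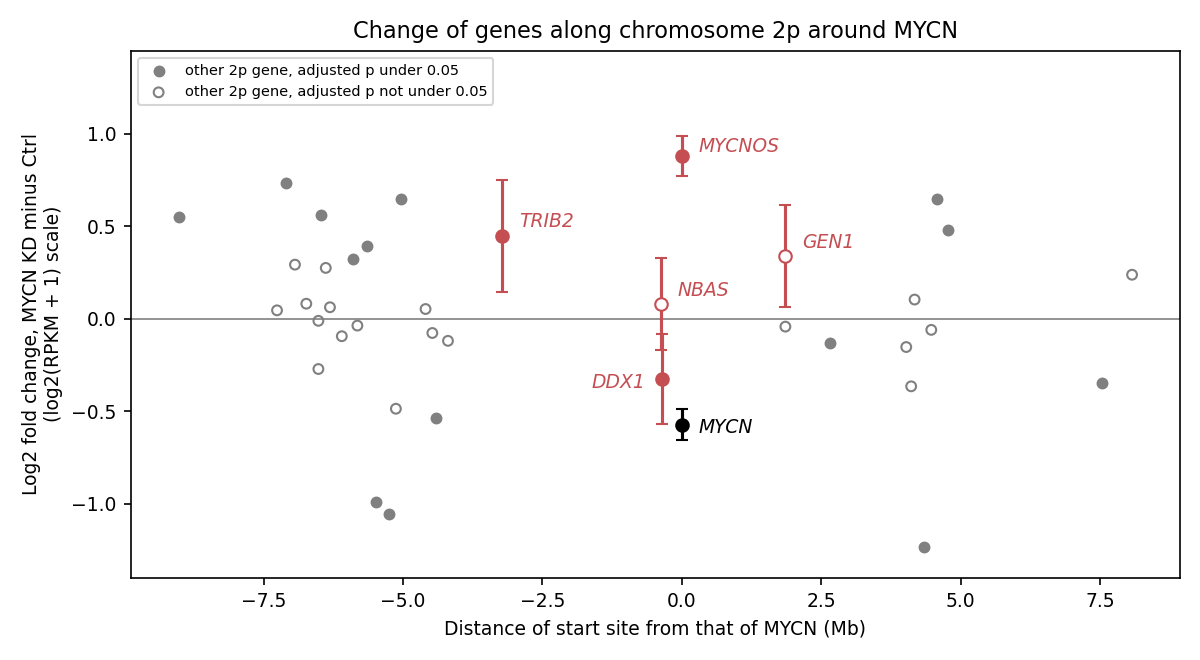
Log2 fold change (MYCN KD minus Ctrl) against the distance of each gene's start site from that of MYCN in Mb, for MYCN (black), the 5 measured neighbours (red, with 95% intervals) and 33 other genes of 2p24 and 2p25 (grey), filled where the limma adjusted p was under 0.05. Rises and falls lie on both sides of MYCN, with MYCNOS at 0.88 and DDX1 at -0.33 nearest to it among the genes shown. GACAT3, which starts 73.4 kb beyond MYCN and rose by 1.73, is not shown.

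To describe which genes had profiles most like each member, the root mean square difference of centred log2(RPKM + 1) over the 4 samples was taken for every tested gene. The nearest to MYCNOS were RUSC1 (0.0052), PRMT2 (0.013) and SLC44A2 (0.014). Those nearest to DDX1 were CHD7 (0.0028), SUGT1 (0.0030) and ATXN1 (0.0043), and those nearest to TRIB2 were TBC1D9 (0.0026), SFMBT2 (0.0037) and STARD3NL (0.0047). For NBAS they were PSD3 (0.00050), RFWD2 (0.0025) and CGRRF1 (0.0026), and for GEN1 they were TMX4 (0.0024), ACYP2 (0.0030) and KIF3B (0.0042). No other member was among the 3 nearest genes of any member. With 4 samples many of the 11411 genes can lie this close.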

How the data were processed

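The RNA-seq data comprised 4 samples of BE(2)C cells, 2 Ctrl and 2 MYCN KD, grouped from the sample labels. The authors aligned the reads to hg19 in HISAT2 (version 2.1.0 in the submitters' processing notes), used featureCounts to count RefSeq genes, passed the counts to DESeq2 and corrected them for unwanted variation by RUVSeq. RPKM derived from the corrected counts were deposited by the authors. The RUVSeq variant, the number of factors and the strand setting are not given in the sources used here.

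Totals of reads per sample were inferred from the RPKM of small RNA genes of known length, and the reads and counted length of each gene followed as the smallest whole numbers within 0.005 reads. Of the small RNA genes used, 74.67% (MYCN KD replicate 2) to 78.41% (Ctrl replicate 1) gave whole reads within 0.02 reads, and the rest did not. The totals and reads had been adjusted before deposit and are not raw depth. Group differences in log2(RPKM + 1) were tested in R 4.3.3 by limma 3.58.1 (lmFit, eBayes with a trend, no block, threshold 0.05) for genes whose RPKM averaged 1 or more, and p-values were adjusted over all of them by Benjamini-Hochberg. The script was tested on simulated data. Ratios were compared by exact permutation over samples. Samples were not paired by replicate number, since the study's methods name no block. The deviations of same-numbered samples had a correlation of -0.98, which does not show whether the cultures were paired.

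Positions are from GENCODE release 44 lifted to GRCh37 and promoter windows from RefSeq (GRCh38.p14). Other steps ran in Python 3.11.15 (pandas 2.3.3, scipy 1.17.1, numpy 2.4.6 and, for figures, matplotlib 3.10.9). The members and lists were chosen with earlier results of these data known. Named genes were MYCN, the 7 members, SMC6, ODC1, the 3 lowest and 3 highest changes past the threshold among other 2p genes, and the 3 most similar genes per tested member. Marker lists were adrenergic, fibroblast, immune, endothelial and epithelial. Alternatives were a pseudocount of 0.1, no filter or a mean RPKM of at least 5, 3 other scalings, the replicate block, eBayes without a trend and each sample left out in turn.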

Additional observations from a re-analysis of the deposited data

How the results depend on the processing

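MYCN and MYCNOS kept their direction and their side of the threshold in 12 of 12 alternatives other than the crossed block below, with log2 fold changes from -0.65 to -0.38 and from 0.80 to 0.94, and NBAS stayed short of it in 12 of 12 (0.0084 to 0.15). No direction reversed. With no filter on low values the limma adjusted p was 0.0708 for DDX1 (-0.33) and 0.0601 for TRIB2 (0.45), leaving 1 member called higher and 0 lower. DDX1 also missed the threshold after quantile normalization (-0.27, adjusted p = 0.0741) and with samples at the same total RPKM (-0.27, adjusted p = 0.105), again 0 members lower. The replicate block gave DDX1 -0.33 at an adjusted p of 0.0573, 2 members higher and 0 lower, and 2077 and 1851 of all genes. It changed the call of no other member. A crossed replicate block, added after seeing the data, called 4 members (NBAS included), 16 other 2p genes and 5910 of all genes higher, and 1, 17 and 5262 lower. Its term follows the replicate pattern of these same samples and left a median residual SD of 0.00197, against 0.0765 in the reported fit. Nearly all of the 11411 tested genes were called, so these calls say nothing particular about a member. With each sample left out, DDX1 ranged from -0.40 to -0.25 and GEN1 from 0.26 to 0.42. In these fits a lone sample was assumed to vary like the others. Like the replicate block, they took their variance from all genes together, so their calls are not like for like with the reported fit. GEN1 passed after quantile normalization (0.28, adjusted p = 0.0265) and median ratio scaling (0.28, adjusted p = 0.0469). It had no value at a mean RPKM of at least 5, where 1868 of all genes were called higher. Quantile normalization moved the log2 ratio difference to 1.30 for MYCNOS to MYCN and to -0.31 for DDX1 to NBAS. The cause of these shifts was not tested. With 2 samples a group, leaving out a sample gave the ratios no test. Depth limits FAM49A and VSNL1, at 3 reads or fewer.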

Other observations

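A gene outside the fixed lists stood out near MYCN, and it was chosen after its values were seen. GACAT3, a long non-coding RNA gene whose annotated start lies 73.4 kb beyond that of MYCN, gave 17.06 and 17.03 RPKM in Ctrl replicates 1 and 2, and 58.79 and 58.69 RPKM in MYCN KD replicates 1 and 2. The knockdown values lay far above both Ctrl values, and its log2 fold change of 1.73 (SE 0.033, 95% interval 1.63 to 1.82, limma adjusted p = 0.00359) was higher than that of 99.87% of the tested genes. It was thus above MYCNOS in MYCN KD and below it in Ctrl. MYCNUT, another non-coding gene whose start lies 20.2 kb before that of MYCN, was listed at 0 in all samples. Of 15 listed coding or long non-coding genes within 2 Mb of the start of MYCN, 7 had a mean RPKM of at least 1. MYCN itself is counted among the 15 and the 7. Another 4 were listed at 0 in all samples. For this window and for GACAT3, the start is the outer edge of the whole gene, not of its main transcript as elsewhere.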
